A study of Homo sapiens with 7 samples.

Results

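The only small RNA library among the 7 libraries of the study was used to describe the microRNAs (miRNAs) of wild-type HCT116, an established cell line from a human colorectal carcinoma. The other 6 libraries hold mRNA of HCT116 DROSHA-KO cells given a control miRNA or miR-148a-3p and were not used here. The wild-type cells carried no knockout, transfection or treatment in the labels, and total RNA was the starting material. With 1 library there was no replicate, so no value has a spread between samples and no test was made. The deposited table lists 7376 isoforms, each a miRNA name with a position of its 5' and its 3' end, and 4409 of them had a count. These belonged to 1023 names and 3627859 counts. Left out were 36 pairs of names, 72 names in all, whose counts mirrored each other on opposite strands. They held 837140 counts, or 23.1% of the total. Apart from the tissue markers and passages that say otherwise, the description below covers the remaining 951 names, 3905 isoforms and 2790719 counts. Of these names 210 had 100 or more counts.

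A miRNA is cut from a hairpin in a transcript first by DROSHA, in the nucleus, and then by DICER, in the cytoplasm. The cut by DROSHA sets the 5' end of the 5p arm and the 3' end of the 3p arm, while DICER sets the remaining ends, the 3' end of the 5p arm among them. Usually 1 arm is loaded into an Argonaute protein and the other is degraded. The seed, bases 2 to 8 from the 5' end, pairs with target mRNAs, so a shift of the 5' end changes the targets while a change of the 3' end leaves the seed as it is.

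Mature sequences are shown for some of the most counted names, which carry most of the counts below, and for less counted relatives. None was at hand for miR-151a-3p, which had 176503 counts. The sequences come from RefSeq (GRCh38.p14), run 5' to 3', and have the seed in capitals. The first is miR-21-5p, widely raised in tumours and encoded at chr17:59841273-59841294 on the plus strand.
miR-21-5p: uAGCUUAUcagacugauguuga
Next are miR-148a-3p, the miRNA named by the study (chr7:25949922-25949943, minus strand), and its relatives miR-148b-3p and miR-152-3p, all with the seed CAGUGCA.
miR-148a-3p: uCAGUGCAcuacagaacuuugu
miR-148b-3p: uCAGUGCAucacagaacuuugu
miR-152-3p: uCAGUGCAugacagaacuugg
The let-7 miRNAs, known as repressors of growth genes such as RAS, share the seed GAGGUAG.
let-7i-5p: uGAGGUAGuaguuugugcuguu
let-7a-5p: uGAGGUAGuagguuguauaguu
let-7f-5p: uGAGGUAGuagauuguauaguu
Next comes miR-100-5p, made from the same host transcript as a let-7a and a miR-125b copy.
miR-100-5p: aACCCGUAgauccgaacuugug
The miR-200 miRNAs, which keep epithelial cells epithelial by repressing ZEB1 and ZEB2, fall under 2 seeds that differ by 1 base. AAUACUG is shared by miR-200b-3p, miR-200c-3p and miR-429, and AACACUG by miR-141-3p and miR-200a-3p, of which only miR-141-3p is printed.
miR-200b-3p: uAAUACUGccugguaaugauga
miR-200c-3p: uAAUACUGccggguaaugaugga
miR-429: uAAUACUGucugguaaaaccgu
miR-141-3p: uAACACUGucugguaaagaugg

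The labelled cell type was checked against miRNAs that mark tissues, over all 1023 names, mirrored ones included. All 5 markers of epithelium, the miR-200 family, were counted, with 96211 counts or 2.65% of all counts. The 3 gut markers miR-192, miR-194 and miR-215 had 1562 counts. Of 6 blood markers, miR-223, miR-144 and miR-150 were at 0 and miR-451a, the red cell miRNA, had 1 count. The count of miR-142 was 2909. For miR-486, also abundant in red cells, it was 188, which sums 94 under each of the mirrored names miR-486-3p and miR-486-5p. All 4 muscle markers were at 0, which allows up to 8.27e-05% of the counts, and miR-122, the liver miRNA, had 1 count. Among 4 neuronal markers miR-9 had 33089 counts and miR-128 had 23487, while miR-124 had 3 and miR-137 had 0. Marker counts were not divided by loci, of which RefSeq has 3 for miR-9-5p and 2 for miR-128-3p. Fibroblast and smooth muscle markers summed to 972 counts, and miR-126, the endothelial miRNA, had 2148.

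By counts, 45.0% of the reads ended at the annotated 3' end, 45.7% were extended beyond it and 9.32% were trimmed. That balance rested on miR-21-5p, which alone held 1174398 counts, 42.1% of those described. Without it 71.4% of the counts had the annotated 3' end, 14.6% were trimmed and 14.1% extended. The 5' ends varied far less, since 97.7% of all counts, and 96.2% without miR-21-5p, began at the annotated 5' base.

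The arms differed by counts mainly through the same name. Names of the 5p arm had 32.5% annotated, 60.2% extended and 7.32% trimmed 3' ends, against 75.7%, 14.1% and 10.2% for names of the 3p arm. Without miR-21-5p the 5p arm had 69.7% annotated, 14.8% extended and 15.5% trimmed ends, so the extended shares of the arms lay 0.684 points apart. Differences at single positions rested on a few names as well. Ends 2 nt beyond the annotation held 6.73% of the 5p counts without miR-21-5p and 0.787% of the 3p counts, but miR-30a-5p and miR-30d-5p held 36594 of these 50490 5p counts, and without them the 5p share was 2.05%. Ends 3 nt beyond held 0.146% of the 5p and 1.78% of the 3p counts, and without miR-222-3p, which had 13607 of the 14210 on the 3p arm, the 3p share was 0.0779% and so below that of the 5p arm. The 175 names with no arm in their name had 56.2% trimmed ends, and 3 of them, miR-378c, miR-107 and miR-320b, held 34576 of these 37734 trimmed counts. The other 172 had 9.78% trimmed, 79.0% annotated and 11.2% extended ends.

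**Figure D1:**
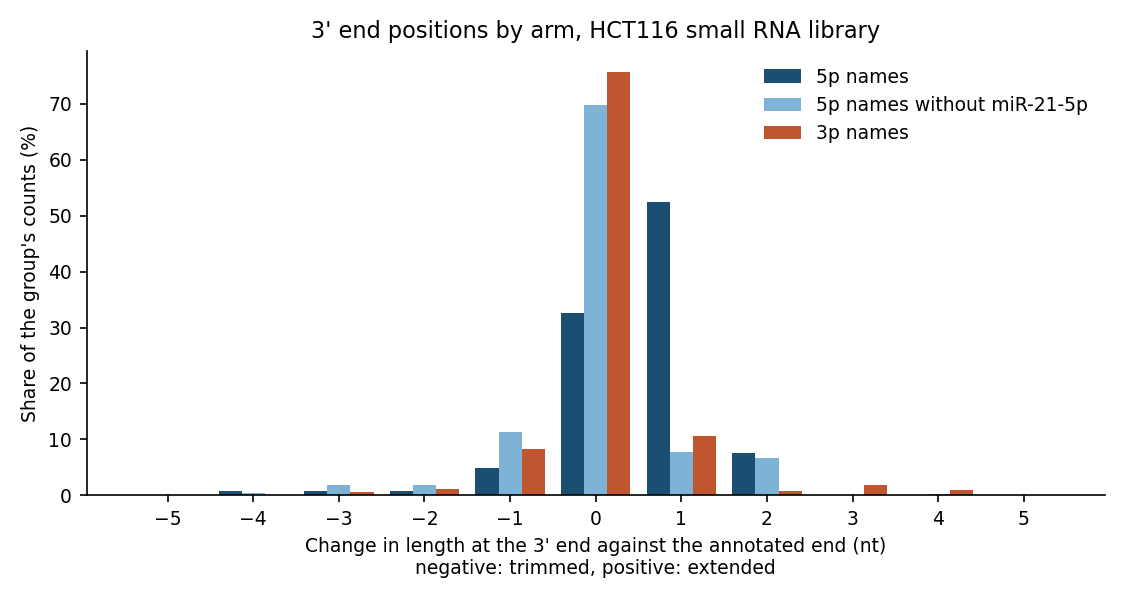
Bars give the share of counts (%) at each 3' end position, as the change in length (nt) from the annotated end, for 5p names, 5p names without miR-21-5p, and 3p names. The bar of 52.5% at 1 nt beyond the end in 5p names drops to 7.75% once miR-21-5p is left out, and the annotated end then leads in both arms.

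Weighing names instead of counts gives each miRNA the same say. Over the 210 names with 100 or more counts, the median annotated share was 57.0%, the median trimmed share 17.8% and the median extended share 4.59%. The most counted 3' end was the annotated one in 129 names, an extended one in 47 and a trimmed one in 34. A single end held 90% or more of the counts in 31 names, while 63 names spread over 3 or more ends with above 10% each. The 101 names of the 5p arm and the 91 of the 3p arm had nearly the same median annotated share, 57.2% and 57.7%, and median extended shares of 7.67% and 2.67%. Wilson 95% intervals around these shares reached at most 9.11 points to either side for names with 100 or more counts and 2.93 points for the 98 names with 1000 or more. Reads were not collapsed to molecules, so such intervals cover counting error only.

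The 15 most counted names ran from nearly fixed to nearly always extended. In miR-148a-3p 99.5% of 253510 counts had the annotated 3' end, with 0.187% trimmed and 0.31% extended. In miR-21-5p only 8.76% did, while 81.0% ended 1 nt later and 8.10% ended 2 nt later. The miRNAs let-7i-5p (96.3% annotated), miR-26a-5p (93.1%) and miR-92a-3p of the miR-17-92 cluster (93.1%) were close to miR-148a-3p. The ends of let-7a-5p and let-7f-5p were trimmed in 25.4% and 30.1% of their counts. A larger trimmed share, 41.8%, was seen in miR-9-5p, the neural miRNA noted above, whose annotated end kept 57.2%. Extended ends led in miR-200b-3p (76.7%), miR-30a-5p (90.5%) and miR-30d-5p (93.1%). Of the rest of the 15, miR-100-5p had 87.2% annotated ends, miR-200c-3p 87.5%, miR-151a-3p 84.5% and let-7g-5p 84.0%.

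**Figure D2:**
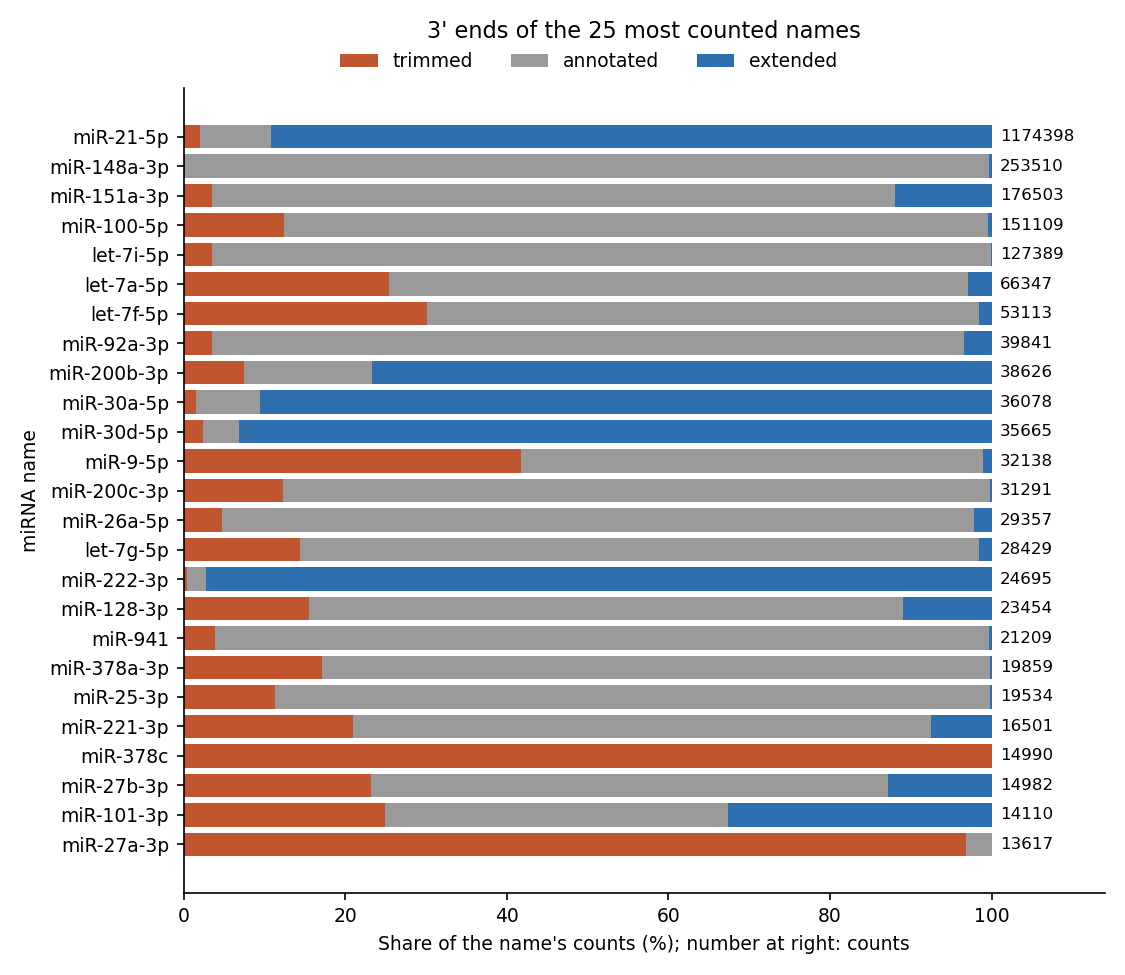
Stacked bars give the trimmed, annotated and extended shares (%) of the 25 most counted names, with the counts of each at the right. Extended ends fill most of the bars of miR-21-5p, miR-200b-3p, miR-30a-5p, miR-30d-5p and miR-222-3p, and trimmed ends those of miR-378c and miR-27a-3p.

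Names at the extremes were taken from those with 1000 or more counts. The most often extended were miR-425-5p (97.3%), miR-222-3p (97.2%), miR-3615 (95.4%), miR-221-5p (95.0%), miR-30d-5p (93.1%) and miR-342-3p (92.4%). They differed in how far they ran. In miR-342-3p 86.5% of the counts ended 1 nt later, in miR-222-3p 55.1% ended 3 nt and 31.5% ended 4 nt later, and in miR-221-5p the ends spread over 1, 2, 3 and 4 nt with 16.2%, 25.5%, 11.6% and 41.8%. The most often trimmed were miR-378c (100%), miR-320b (99.7%), miR-107 (98.2%), miR-27a-3p (96.8%), miR-141-3p (89.3%) and miR-125a-5p (84.7%). The highest annotated shares were those of miR-548o-3p (99.6%), miR-148a-3p, miR-96-5p (97.3%), miR-20a-5p (96.4%), let-7i-5p and miR-941 (95.8%).

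The most counted ends of some of these are printed to show which bases were involved. First come extended ends, with the bases past the annotated end in capitals. The file gives positions only, so these bases are those of the hairpin in RefSeq, and a base added without template cannot be told apart from the hairpin's own.
miR-21-5p, 1 nt longer: uagcuuaucagacugauguugaC
miR-200b-3p, 1 nt longer: uaauacugccugguaaugaugaC
miR-152-3p, 1 nt longer: ucagugcaugacagaacuuggG
miR-30a-5p, 2 nt longer: uguaaacauccucgacuggaagCU
miR-30e-5p, 2 nt longer: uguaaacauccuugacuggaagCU
miR-222-3p, 3 nt longer: agcuacaucuggcuacuggguCUC
Next come trimmed ends, with the annotated bases that are missing in capitals.
miR-27a-3p, 1 nt shorter: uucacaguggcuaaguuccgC
miR-141-3p, 1 nt shorter: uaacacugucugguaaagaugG
miR-107, 2 nt shorter: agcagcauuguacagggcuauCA
miR-378c, 5 nt shorter: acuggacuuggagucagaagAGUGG
Last come relatives whose most counted end was the annotated one, to be read against miR-222-3p, miR-30a-5p and miR-27a-3p.
miR-221-3p: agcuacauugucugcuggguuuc
miR-30c-5p: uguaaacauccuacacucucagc
miR-27b-3p: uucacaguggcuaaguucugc

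Relatives with the same seed thus sat in different classes, and part of the contrast lay in the annotation. A length here runs from the annotated 5' end to the most counted 3' end, while the shares cover all 5' ends. Both miR-221-3p and miR-222-3p, neighbours on the X chromosome that repress the cell cycle inhibitor p27, are annotated with 23 and 21 nt. At their most counted ends they were 23 nt (71.5% of 16501 counts) and 24 nt long. The annotated lengths of miR-200b-3p and miR-200c-3p are 22 and 23 nt. Both most often had the 3' end that gives 23 nt from the annotated 5' end (74.7% and 87.5%). Even so, 1 is classed as extended and the other as annotated. The same held for miR-26b-5p, annotated with 21 nt and found mostly at 22 nt (78.5%), the length of miR-26a-5p, and for miR-152-3p, found mostly at 22 nt (57.1% of 189 counts), the length of miR-148a-3p and miR-148b-3p.

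Other relatives differed in the length itself. Although miR-27a-3p and miR-27b-3p are both annotated with 21 nt, 95.3% of the counts of miR-27a-3p were 1 nt shorter, while 63.9% of those of miR-27b-3p kept the annotated end. In the other miR-200 seed, 85.1% of miR-141-3p ended 1 nt before the annotation and miR-200a-3p was split between 1 nt beyond it (43.2%) and 1 nt before it (39.7%). The most counted length was 24 nt for miR-30a-5p and miR-30e-5p and 23 nt for miR-30c-5p. Of the 210 names, only the 184 with a mature sequence in RefSeq could be grouped by seed, which left out miR-30d-5p and miR-30b-5p. Among the 184, 63 shared a seed with at least 1 other, in 24 groups. Annotated lengths differed within 13 of these groups. Lengths at the most counted 3' end were taken with the annotated 5' end, which held only 47.9% of the counts of miR-29a-3p. The range of these lengths was smaller than the annotated range in 8 of the 13 groups, equal in 3 and larger in 2. The other 11 groups have 1 annotated length, so their range could not shrink, and it was larger in 4 of them. Over all 24 groups the range was thus smaller in 8, equal in 10 and larger in 6.

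**Figure D3:**
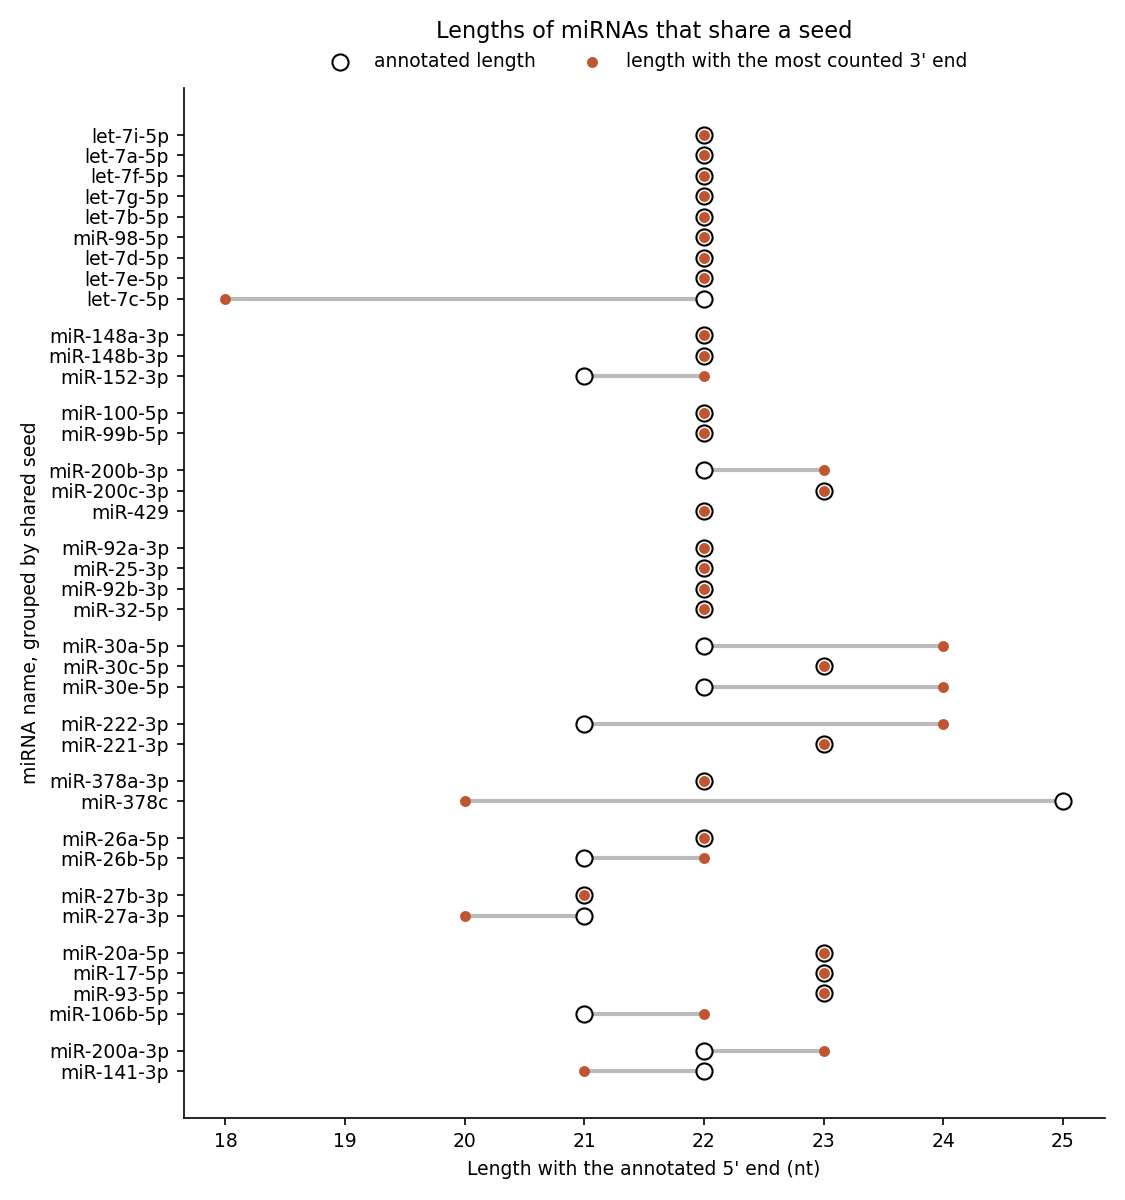
Open circles give the annotated length (nt) and filled circles the length from the annotated 5' end to the most counted 3' end. Shown are the names of the 12 most counted seed groups, among names with a RefSeq sequence. Filled circles of miR-200b-3p, miR-26b-5p and miR-152-3p move onto the length of a relative, while those of miR-27a-3p and miR-141-3p move away from it.

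By family, most let-7 and miR-98 names kept their annotated end, which was the most counted in 10 of 12 names, with a trimmed end in the other 2 and a median annotated share of 69.9%. Of the miR-17-92 cluster and its paralogs, which promote proliferation, 8 of 11 names had the annotated end most often, with a median of 85.0%. Both miR-19 names were exceptions, as miR-19b-3p was trimmed in 68.6% of 644 counts and miR-19a-3p in 51.9% of 491. The miR-10, miR-99, miR-100 and miR-125 group had 7 of 9 names with the annotated end in the lead, and all 5 miR-181 names did. For comparison, the annotated end led in 129 of all 210 names.

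The miR-30 family stood at the other end, with an extended end most often in 4 of 7 names, a trimmed one in 0 and a median extended share of 54.0%. Among all 210 names an extended end led in 47, a trimmed one in 34, and the median extended share was 4.59%. In the miR-30 family, miR-30b-5p was an exception with 82.9% annotated ends of 251 counts. Of 3 names from miR-221 and miR-222, an extended end led in 2. Of the 5 names of miR-148 and miR-152, the annotated end led in 4, among them miR-148a-5p (92.3% of 716 counts). The 8 names of the miR-200 family were mixed, with 5 annotated, 2 extended and 1 trimmed. The 6 names of the miR-23, miR-27 and miR-24 group were too, with 3 annotated, 2 extended and 1 trimmed. Of miR-24, miR-24-3p and miR-24-1-5p were left out as mirrored, while miR-24-2-5p was kept, with 54.8% extended ends of 504 counts. In the same group miR-23a-3p was extended in 65.7% of its counts and miR-23b-3p had 76.9% annotated ends, while in the miR-29 family, repressors of collagen genes, miR-29a-3p was trimmed in 79.3% and miR-29b-3p had 78.1% annotated ends.

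Small families tied to the gut, to p53 and to DROSHA were also read. Of the 2 gut names with 100 or more counts, miR-192-5p was extended in 71.3% of 1172 counts, and miR-194-5p had 13.8% extended, 43.1% annotated and 43.1% trimmed ends of 334 counts. An extended end led in miR-34a-5p, a target of p53, with 66.6% of 359 counts. Some hairpins need no DROSHA, among them mirtrons, whose outer ends come from splicing. Of these, miR-877-5p was extended in 87.8% of 344 counts, most often by 3 nt, and miR-877-3p kept the annotated end in 181 of 201 counts. Among the 3 miR-320 names with 100 or more counts, trimmed ends led in 2, miR-320b and miR-320c, against 34 of all 210 names.

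Only names with a mature sequence in RefSeq, 184 of the 210, could be checked for letters shared with another name. This left out miR-320a-3p, so miR-320b was not compared with it. For 7 of the 210 names, over 10% of the counts fell on an isoform whose letters, by RefSeq, are also those of another name's isoform. These were miR-378c (99.6%), miR-107 (96.9%), miR-500a-3p (42.4%), miR-502-3p (64.8%), let-7c-5p (96.1%), miR-199a-3p (100%) and miR-320c (86.9%). The trimmed shares of miR-378c, miR-107, let-7c-5p, miR-320c, miR-502-3p and miR-199a-3p thus rest on reads whose letters alone do not assign them to these names. Missing its last 5 bases, miR-378c reads the same as miR-378a-3p missing its last 2, yet the file gives 14923 counts to the first and 342 to the second. In the same way miR-107 without its last 2 bases had 12769 counts and the equal isoform of miR-103a-3p had 1110. For let-7a-5p and let-7c-5p, each without its last 4 bases, the counts stood at 3 to 1, with 444 for let-7a-5p, and let-7a has 3 loci in RefSeq while let-7c has 1.

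The annotated length was related to the extended share. Of the 210 names 184 had a mature sequence in RefSeq. The 29 names annotated with 21 nt or fewer had a median extended share of 32.5%, against 1.58% for the 109 names of 22 nt, 3.83% for the 37 of 23 nt and 7.68% for the 9 of 24 nt or more. An extended end was the most counted in 11 of those 29 names and in 16 of the 109. The 3927 counted isoforms of names with a RefSeq sequence, mirrored names included, were all 18 to 26 nt long. That range limits how far a long name can be extended or a short one trimmed. Of the 2551106 described counts of names with a RefSeq sequence, 38.5% were 22 nt and 44.8% were 23 nt long. Most of the latter, 950109 of 1144043 counts, were miR-21-5p with its extra base or another isoform of that length, and without miR-21-5p the shares were 63.8% at 22 nt and 14.1% at 23 nt. The last annotated base went with smaller differences, as the median extended share was 10.6% for the 41 names ending in G and between 0.959% and 2.94% for those ending in A, C or U.

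Arm use was read from hairpins whose 5p and 3p names together had 100 or more counts. There were 134, with 2544537 counts, of 475 hairpins with any count, and a further 14 were left out because an arm was mirrored. Just inside the threshold were miR-29c (103 counts) and miR-4787 (101), and just outside miR-193b (98) and miR-3200 (97). More counts lay on the 5p arm in 76 hairpins and on the 3p arm in 58. In 103 hairpins, or 76.9%, 1 arm held 90% or more of the counts, the 5p arm in 58 and the 3p arm in 45. In 61 it held 99% or more, and the median share of the minor arm was 1.40%. By counts the 5p arm had 71.7%, and 47.4% once miR-21 was left out.

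The 10 most counted hairpins all belonged to the lopsided kind. Of miR-21, 1174398 counts lay on the 5p arm and 1570 on the 3p arm, a 3p share of 0.134%. Of miR-148a, 253510 lay on the 3p arm and 716 on the 5p arm, a 5p share of 0.282% (95% interval 0.262% to 0.303%). The minor arm was at 0 counts in 24 hairpins. Among these, miR-186 (2942 counts on the 5p arm), miR-1180 (1798, 3p), miR-196b (1372, 5p), miR-192 (1172, 5p) and miR-149 (1129, 5p) had the most counts, and a count of 0 still allows a minor share of 0.102%, 0.167%, 0.219%, 0.256% and 0.266%.

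Only 5 hairpins with 1000 or more counts had 20% or more on the minor arm. The most balanced was miR-200a, with 8742 counts on the 5p and 11191 on the 3p arm, or 43.9% on the 5p arm (43.2% to 44.5%). Its genomic neighbour miR-200b had 430 and 38626, so these 2 members of 1 cluster lay 42.8 points apart. In miR-330 the counts were 798 and 542, or 59.6% on the 5p arm. The 3 others were miR-30e with 2856 and 1185 (70.7% on the 5p arm), let-7d with 2202 and 924 (70.4%), and miR-106b with 571 and 1525 (27.2%). Below 1000 counts a further 14 hairpins had a minor arm of 20% or more, among them miR-132 (186 and 142), miR-331 (487 and 317), miR-671 (267 and 475), miR-140 (275 and 683) and the mirtron miR-877 (344 and 201).

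**Figure D4:**
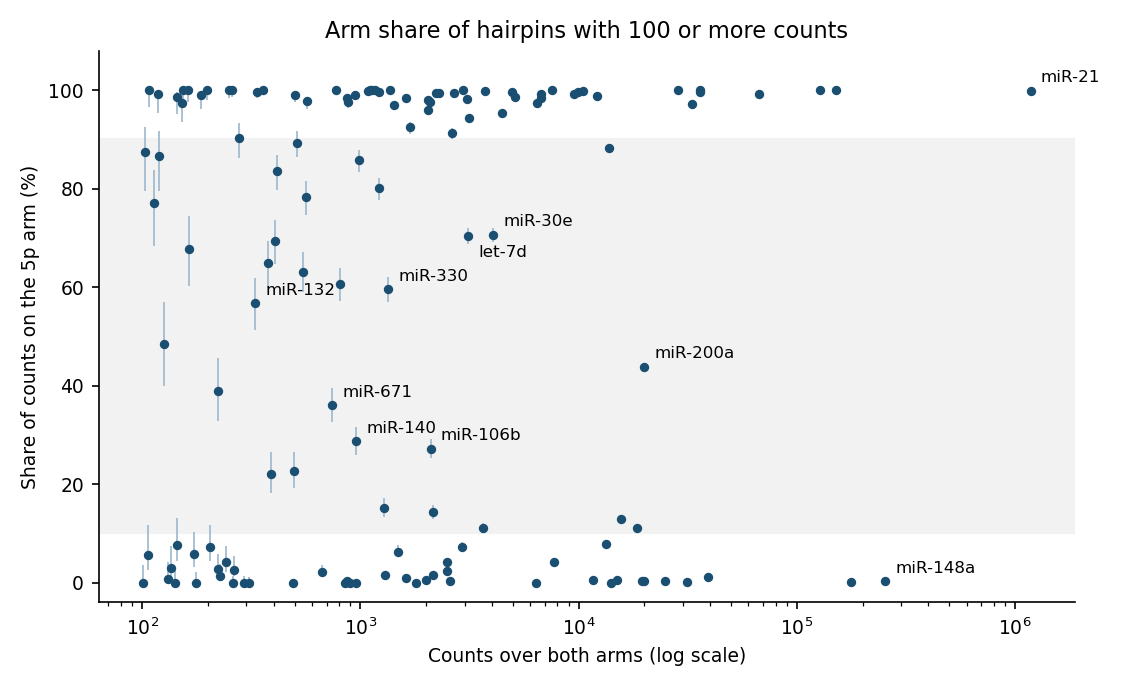
Each point is 1 of the 134 hairpins, with its counts over both arms (log scale) and the share of them on the 5p arm (%), and bars give Wilson 95% intervals. The shaded band marks hairpins with less than 90% on either arm, where 31 of the 134 lie, and miR-200a, at 43.9%, is the most counted of those near the middle.

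Families with hairpins of 100 or more counts used 1 arm throughout or split. All 8 let-7 and miR-98 hairpins, all 4 miR-30 hairpins and all 5 of the miR-10, miR-99, miR-100 and miR-125 group had more 5p counts. All 4 of the miR-200 family, all 4 of the miR-23 and miR-27 group and all 3 of miR-148 and miR-152 had more 3p counts. The miR-17-92 cluster and its paralogs split, with 4 hairpins on each side. The miR-29 family and the list of mirtrons and other DROSHA independent hairpins split too, with 1 hairpin on each side. For comparison, 76 of all 134 hairpins, or 56.7%, had more 5p counts and 58 had more 3p counts. Within a family the minor arm varied, from 0% to 29.6% among the let-7 hairpins and from 0.0990% to 43.9% among the miR-200 hairpins.

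The first base went with the major arm. An Argonaute protein prefers a guide that begins with U and the strand whose 5' end is paired less firmly. Of the 111 hairpins with both sequences in RefSeq, the major arm began with U in 70 (63.1%) and the minor arm in 19 (17.1%). The major arm had more A and U among its first 4 bases in 57 hairpins, the minor arm in 28, and 26 were equal. In the 26 hairpins with over 10% on the minor arm, the major arm began with U in 12 and the minor arm in 9, a smaller gap in the same direction. For A and U among the first 4 bases the order was the other way in these hairpins, as the major arm had more in 5 and the minor arm in 12. The difference between these 26 hairpins and the rest was not tested.

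Names that carry a locus number, such as miR-125b-1-3p, have no partner of the same stem. In all 79 arm names, with 174960 counts, had none. Summing over loci after the values were seen gave 17 hairpins, 12 of them not among the 134, and most were lopsided. The exceptions were miR-125b, with 8447 counts on the 5p arm and 5423 on the 3p arm (60.9% on the 5p arm), and miR-16, a repressor of BCL2, with 2669 and 592 (81.8%). Counts of names with several loci tend to be multiples of the number of loci. With mirrored names included, 81.4% of isoforms had even counts for names with 2 loci and 40.4% for names with 1. Dividing each name by its loci, also chosen after the values were seen, put miR-125b at 43.8% on the 5p arm, so its major arm changed from 5p to 3p, and miR-16 at 69.3%.

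Both arms had 100 or more counts in 40 hairpins, which allows their 3' ends to be compared within a hairpin. The annotated share was higher on the 5p arm in 17 and on the 3p arm in 23, with medians of 55.7% and 55.9%. It was higher on the major arm in 20 of the 40. The ends of a hairpin's arms were often unlike. In miR-200a the 5p arm kept 93.4% annotated ends and the 3p arm 13.2%, in miR-200b 73.0% and 15.8%, and in miR-141 85.3% and 2.01%. In miR-221 the order was the other way, with 0.962% on the 5p and 71.5% on the 3p arm. Both arms of miR-148a kept their ends, with 92.3% and 99.5%, and both arms of miR-21 were extended, with 89.2% on the 5p and 63.6% on the 3p arm.

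**Figure D5:**
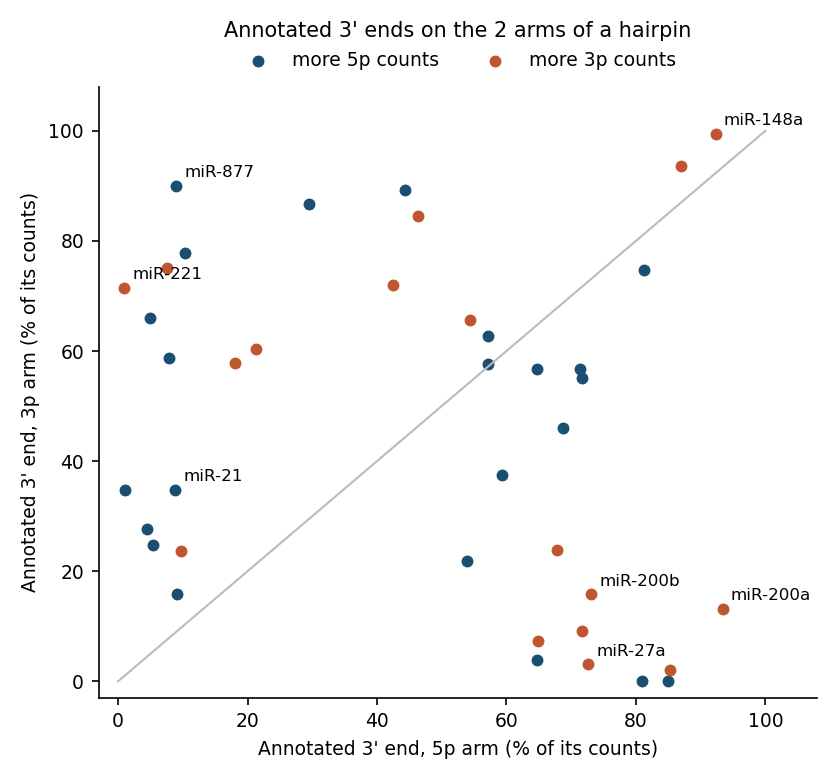
Each point is 1 of the 40 hairpins with 100 or more counts on each arm, with the annotated share (%) of the 3' ends of its 5p arm and of its 3p arm, coloured by the arm with more counts, and the line marks equal shares. Points lie on both sides of the line, 23 above and 17 below, with miR-148a at the top right and miR-27a at the bottom right.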

How the data were processed

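Per the labels' protocols, total RNA was made into a library with a TruSeq small RNA kit and sequenced on an Illumina NextSeq. Per the submitters' processing notes, cutadapt, STAR, Bowtie2 and GRCh38 were used in the series, with no role or version given. The deposited values are counts per isoform, whole numbers without normalization, with a 5' and a 3' offset of up to 5 nt from an annotated end whose release is not given in the sources used here. Counts of identical molecules were not collapsed.

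The sign of the offsets is not in the header. It was read as positive for a shorter molecule, because this gave the narrowest range of isoform lengths. Lengths were taken for the 3927 isoforms of names with a RefSeq sequence, mirrored names included. They are then 18 to 26 nt long, against 8 to 33, 12 to 34 and 11 to 32 nt under the 3 other readings. Those readings put 425, 254 and 304 isoforms outside 18 to 26 nt. These limits are those of the reading used, so that it has 0 outside was fixed beforehand. The 8 largest mirrored pairs were themselves found with this sign, so that all 8 mirror by position under it is no separate check. Under the 3 other readings, in the same order, 2, 4 and 2 of them did.

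Mirrored names were reverse complements over 14 or more bases, or names at overlapping loci, whose isoform counts stood in a whole ratio from 1 to 3 within 10% and covered over 50% of the smaller name's counts. The ratio above 1 and the search over shifts were added after the data were seen, and both names were left out. The search was tested on simulated data. Named were the 15 most counted names, the 6 with the highest share of each end class among those with 1000 or more counts, the leading members of family lists, the 10 most counted hairpins, those with 1000 or more counts and 20% or more on the minor arm, the 5 most lopsided, and family hairpins. The relatives by shared seed, the further balanced hairpins, the hairpins summed over loci, the values without miR-30a-5p, miR-30d-5p or miR-222-3p, the lengths without miR-21-5p and the examples of unlike arms were chosen after their values were seen. The members and lists were chosen with earlier results of these data known. Isoforms with a blank count were left out. Intervals are Wilson 95% intervals, and a count of 0 was given a limit of 3 counts. Python 3.11.15, pandas 2.3.3 and scipy 1.17.1 were used.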

Additional observations from a re-analysis of the deposited data

How the results depend on the processing

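Shares by counts depended on which names were included. Leaving out only the higher numbered name of each mirrored pair gave 10.6% trimmed, 51.6% annotated and 37.7% extended ends, and leaving out no name gave 10.9%, 53.8% and 35.3%. Without miR-21-5p they were 14.6%, 71.4% and 14.1%. Smaller moves came with annotated 5' ends only (8.95%, 44.9% and 46.1%), with counts divided by the number of loci (8.36%, 43.1% and 48.5%) and, chosen after seeing the data, without isoforms listed under several names (8.34%, 45.5% and 46.2%). The median annotated share over names was 64.3% for names with 1000 or more counts and 50% for those with 10 or more, and stayed between 56.1% and 59.3% under the other alternatives run. With 1000 or more counts required there were 74 hairpins, 44 with more 5p counts and 62 with 90% or more on 1 arm. Under the 4 other hairpin alternatives the first count lay between 127 and 181. Dividing by loci, chosen after seeing the data, moved the 5p share of miR-125b from 60.9% to 43.8% and that of miR-16 from 81.8% to 69.3%. That of miR-181a moved from 90.8% to 87.6%. No paired analysis was possible because the description rests on 1 library and makes no test. Depth limits the names near 100 counts most, and the precision between cultures cannot be judged from 1 library.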

Other observations

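Isoforms with the same letters under 2 names did not all follow 1 rule of counting. The isoform shared by miR-27a-3p and miR-27b-3p, each without its last 3 bases, had 125 counts under both names, which have 1 locus each. That of let-7a-5p and let-7c-5p had counts in a ratio of 3 to 1. In both cases the counts stood in the ratio of the loci. The isoforms shared by miR-107 and miR-103a-3p (12769 and 1110) and by miR-378c and miR-378a-3p (14923 and 342) did not have the ratio of their loci. Nor did that of miR-500a-3p and miR-502-3p, with 110 and 70 counts and 1 locus each. The reason was not tested.

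The name with the most counts among those left out was miR-7-5p, with 511426 counts against 170478 for its mirrored partner miR-3529-3p, a ratio of 3, and miR-7 has 3 loci. Next was miR-24-3p with 34142 counts against 17071 for miR-3074-5p, a ratio of 2. In both cases the strand of origin cannot be told from the counts.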
